A study of Mus musculus with 4 samples.

Results

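The 2′-5′-oligoadenylate synthetase (OAS) genes Oas1a, Oas1b, Oas1c, Oas1g, Oas2, Oas3, Oasl1 and Oasl2 were followed in mouse mammary tumour cells labelled Pak1-/- or Pak1+/+ for the kinase gene Pak1. Members were taken by gene name: a probe belonged to the family when it was no control spot and its gene name in the scanner output was one of these 8, which gave 11 of 39429 probes. The family was picked with its difference between the genotypes in these same arrays already seen, so its own values between genotypes are given as a description, without a test. The brightest probe of a gene over the 4 arrays was taken as the value of that gene, and every other probe is given beside it.

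The samples were cell lines derived from mammary tumours of MMTV-Neu mice, whose Neu oncogene (rat Her2) is expressed in mammary epithelium from the promoter of the mouse mammary tumour virus. There were 2 samples labelled Pak1-/- and 2 labelled Pak1+/+, all of them Neu-positive. Every culture had grown in low calcium medium with 5% horse serum, was kept without serum for 3 h and then received EGF for 15 min, so no untreated level of any gene was measured. The design text states that each group came from 2 tumours, and the labels do not tie a replicate to a tumour, so the replicate spread may hold technical as well as biological variation.

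RNA of each sample was hybridized with 1 dye to its own array of 1 slide. The Pak1-/- samples lay at positions 1 and 2 and the Pak1+/+ samples at positions 3 and 4, so position and genotype cannot be told apart. Between 62.2% and 70.4% of probes were well above background on an array, and the median spot intensity lay between 322 and 331. Replicates correlated at r = 0.997 over 27215 probes, against 0.954 to 0.959 between genotypes, and a probe differed between replicates by a median of 0.109 (Pak1-/-) or 0.0828 (Pak1+/+) on the log2 scale. The number of arrays limits the precision.

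The deleted gene was no lower in the arrays labelled Pak1-/-. Pak1 read 12.21 and 12.25 there and 12.04 and 12.04 in the Pak1+/+ arrays on the normalized log2 scale (difference 0.19, limma adjusted p = 0.070). Whether its probe lies inside the deleted part is not given in the sources used here, so the directions below are those of the labels. Erbb2, which encodes Her2, differed by −0.31 (limma adjusted p = 0.0201), a call lost in 3 of the 4 fits that left out 1 sample (all but that without Pak1-/- replicate 2, adjusted p up to 0.112). Of 8 epithelial marker genes 7 were well above background on all 4 arrays, with Krt8 and Krt18, keratins of luminal epithelium, between 18.09 and 18.88.

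OAS enzymes bind double-stranded RNA, a sign of viral infection, and then join ATP into short 2′-5′-linked oligoadenylates (2-5A). 2-5A sets off the cutting of viral and cellular RNA. Interferons switch on most OAS genes through factors such as Stat2 and Irf9, which act at a DNA element called ISRE. The mouse has many Oas1 copies, not all of them active enzymes, and OAS-like (Oasl) genes whose products carry ubiquitin-like domains.

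The array probes are shown first because several decided how a gene could be read. All 11 probes mapped to chromosome 5 in the mm9 coordinates of the scanner output. A pair of Oas1b probes, on the + strand and 159 bases apart, gave unlike results. The first 30 bases of A_55_P1959064 (chr5:121273890-121273949) and of A_55_P1998962 (chr5:121274109-121274168) are given 5′ to 3′, in lower case.
Oas1b A_55_P1959064: cagaaggagaatattatggtttgtatatgg
Oas1b A_55_P1998962: gtgataatggactgaacttctgaacctgta

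For Oas1g a probe whose accessions name no other OAS gene, A_55_P1998977 (chr5:121326151-121326210, − strand), lay beside A_55_P1998979 (chr5:121326271-121326330, − strand), whose accessions name Oas1a as well. The probe A_55_P1998943 (chr5:121346735-121346794, − strand), brightest of Oas1a, likewise lists Oas1g accessions, whereas A_55_P1998942 (chr5:121348338-121348397, − strand) lists Oas1a alone. Signal from the near copies may therefore be shared between Oas1a and Oas1g at the shared probes. The first 30 bases of both Oas1g probes follow.
Oas1g A_55_P1998977: tggtttcctttctgagacatgaatttgatg
Oas1g A_55_P1998979: ggggcccataggtatgatgaaaataaaagg

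Near-identical stretches also tied members to Oas1 copies outside the set. The best alignment of the Oas1a probe A_55_P1998943 with the Oas1f probe A_51_P154842 held 48 identical bases of 58, and that of the Oas1c probe A_55_P1998957 with the Oas1d probe A_55_P1989071 held 40 of 48. Windows of 30 alignment columns from each are shown, with capitals for bases that are the same in both, 26 in the first pair and 27 in the second. The first window holds 3 gaps, which are not printed, so the Oas1f line is shorter and its end does not line up letter by letter.
Oas1a A_55_P1998943: TGTCCACCTGTTGGaAGGTTCTGTCtgaCA
Oas1f A_51_P154842: TGTCCACCTGTTGGgAGGTTCTGTCCA
Oas1c A_55_P1998957: TGAGATTTGAAGCACTgAATTAAAtCAcAA
Oas1d A_55_P1989071: TGAGATTTGAAGCACTaAATTAAAgCAaAA

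Promoters are shown because the ISRE lies there in many interferon-induced genes. RefSeq sequences (GRCm38.p6) from 250 bases before to 50 bases after the start were at hand for 6 of the 8 members, not for Oas2 or Oas1b. The ISRE core was searched on both strands as GAAANNGAAA, where N is any base. It was found for Oas1a, Oas1c, Oas1g and Oas3, and not for Oasl1 or Oasl2. It was held by 3.44% of 32851 promoters of the same length, and by 3.99% of genes when the 27025 genes were counted once each. The 150 bases before the start are given 5′ to 3′ in the gene's direction, with the matches in capitals.
Oas1a (chr5:120907526-120907675, − strand): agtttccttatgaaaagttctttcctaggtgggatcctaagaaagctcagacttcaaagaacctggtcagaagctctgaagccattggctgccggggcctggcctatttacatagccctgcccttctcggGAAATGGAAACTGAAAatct
Oas1g (chr5:120887614-120887763, − strand): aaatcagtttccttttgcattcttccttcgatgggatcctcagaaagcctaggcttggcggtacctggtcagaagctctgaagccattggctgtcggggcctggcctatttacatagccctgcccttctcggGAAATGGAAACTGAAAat
Oas1c (chr5:120812515-120812664, − strand): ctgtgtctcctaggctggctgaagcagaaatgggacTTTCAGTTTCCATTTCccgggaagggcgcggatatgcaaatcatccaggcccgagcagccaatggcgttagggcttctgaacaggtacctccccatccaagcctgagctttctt
Oas3 (chr5:120777660-120777809, − strand): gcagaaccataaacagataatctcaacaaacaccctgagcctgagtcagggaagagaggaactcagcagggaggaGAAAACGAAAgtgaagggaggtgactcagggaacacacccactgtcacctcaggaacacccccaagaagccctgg

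Oas1a and Oas1g held the same run of 16 letters, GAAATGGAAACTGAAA, made of 2 overlapping matches. The run began 20 bases before the start in Oas1a and 18 bases before it in Oas1g. The Oas1c window held its reverse complement, TTTCAGTTTCCATTTC, farther out, from 114 bases before the start. That run (chr5:120812613-120812628) ended 7 bases before position 120812635, where the RefSeq gene table places the lower end of Oas1b, which it lists as a transcribed pseudogene. Distances are from the starts of the promoter table, and for Oas1a, Oas1c and Oas3 the gene table reaches farther, to 120907544, 120812540 and 120777684, so a longer transcript would begin inside or nearer to the matches. The gene table likewise begins Oasl1 and Oasl2 before those starts, at 114923143 and 114896926 against 150-base windows that end at 114923239 and 114896933, so less of the searched stretch lies before these genes. In Oas3 a single match, GAAAACGAAA, began 75 bases before the start. The second element searched, the GAS motif TTCNNNGAA, reads the same on both strands. It was found at a single site in the Oas1a window and in no other member's, and 8.30% of all promoters held it. A match is a run of letters, and binding was not measured here.

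Members of the family were far apart in how much they differed between the genotypes. Oas2, Oas1a, Oasl2 and Oasl1 were 74.0-fold to 258-fold higher in the Pak1-/- samples, Oas3 was 5.998-fold higher, and Oas1c, Oas1b and Oas1g, each by its brightest probe, stood between 1.01-fold and 1.33-fold. All levels below are normalized log2 intensities, in which 1 unit is a doubling, and mean ± SD is over 2 samples. The 11 probes on the 4 arrays are shown in the plot of values by array.

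**Figure D1:**
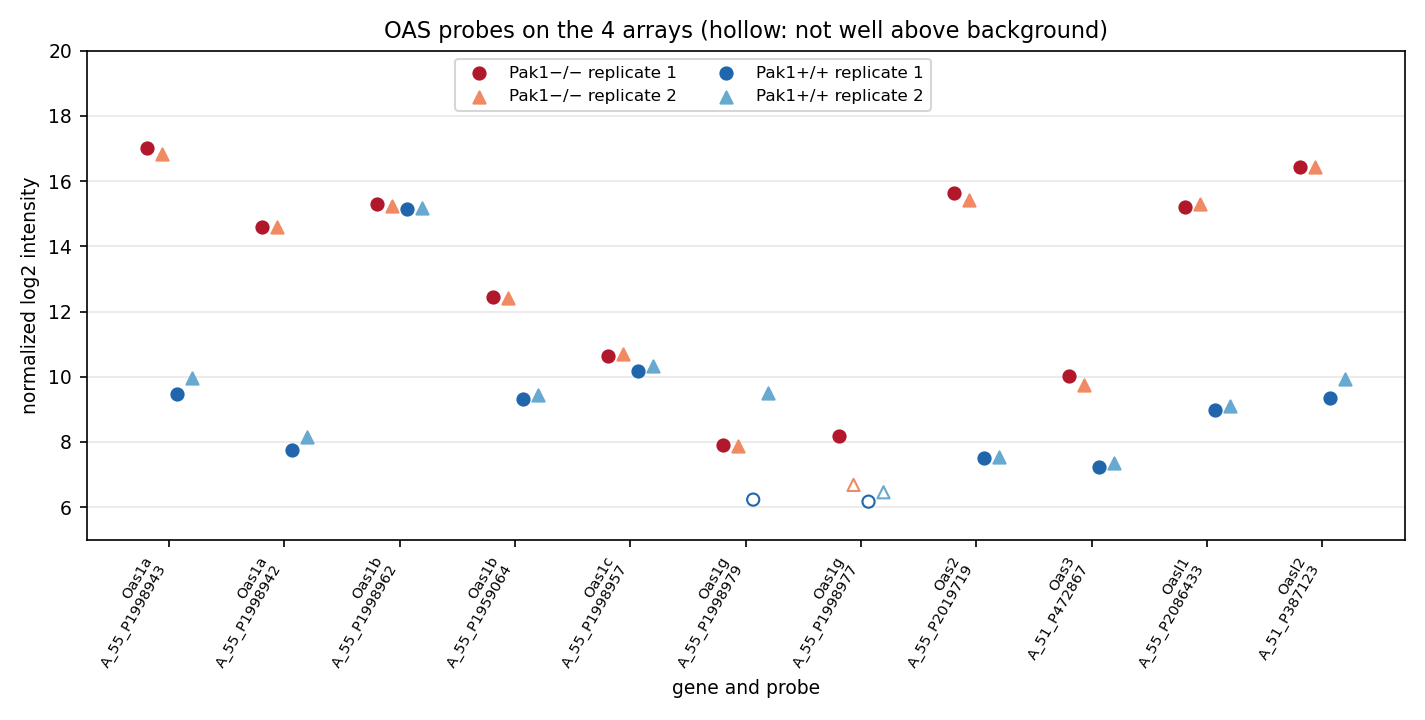
Normalized log2 intensity (vertical axis) of the 11 OAS probes (horizontal axis) on the 2 Pak1-/- arrays (red, orange) and the 2 Pak1+/+ arrays (dark and light blue); hollow symbols were not well above background. The Oas2 probe lies at 15.64 and 15.42 against 7.50 and 7.54, and the Oas1b probe A_55_P1998962 lies between 15.13 and 15.31 on all 4 arrays.

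Oas1a is the mouse gene usually taken as the counterpart of human OAS1, an enzyme that makes 2-5A. Its brightest probe read 17.00 and 16.84 in the Pak1-/- samples and 9.46 and 9.95 in the Pak1+/+ samples (means 16.92 ± 0.11 and 9.71 ± 0.35, SD, n = 2 each). The difference was 7.22, or 149-fold, beside gaps of 0.16 and 0.49 within the groups. The probe that lists Oas1a alone read 14.60 and 14.61 against 7.74 and 8.16, a difference of 6.65 or 101-fold, so the probe without Oas1g accessions showed the same direction at nearly the same size. On both probes the second Pak1+/+ sample was above the first, by 0.49 and 0.42.

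Oas2 encodes a larger synthetase with a duplicated catalytic unit. Its probe (A_55_P2019719, chr5:121180343-121180402, − strand) read 15.64 and 15.42 in the Pak1-/- samples and 7.50 and 7.54 in the Pak1+/+ samples (means 15.53 ± 0.16 and 7.52 ± 0.03, SD, n = 2 each). The difference of 8.01, or 258-fold, was the largest of the 8 members. The spot intensities before correction were 46885 and 45369 against 163 and 176, where the local background had a median between 39 and 42. The Pak1+/+ values were thus dim but well above background on both arrays.

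Oas3 encodes the largest synthetase, with a chain of OAS units. Its probe (A_51_P472867, chr5:121203598-121203657, − strand) read 10.03 and 9.75 against 7.25 and 7.36 (means 9.89 ± 0.20 and 7.30 ± 0.08, SD, n = 2 each). The groups did not overlap, and the difference of 2.58, or 5.998-fold, was far below that of Oas2, its neighbour on the chromosome. Its spot intensities were 1029 and 867 against 143 and 157, none of them at background, and the difference was 3.36 when the scanner's own background-subtracted signal was used.

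Oasl1 and Oasl2 lie side by side, away from the Oas1-Oas2-Oas3 cluster. Oasl2 (A_51_P387123, chr5:115362168-115362227, + strand) read 16.44 and 16.44 in the Pak1-/- samples and 9.35 and 9.94 in the Pak1+/+ samples, a difference of 6.80 or 111-fold. Oasl1, known for holding back translation of Irf7, read 15.21 and 15.30 against 8.97 and 9.11 (A_55_P2086433, chr5:115387861-115387920, + strand), a difference of 6.21 or 74.0-fold. Both genes of this pair were thus separated by over 6 log2 units, with no overlap between the groups.

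Oas1b, a gene known for resistance to flaviviruses and truncated in most laboratory strains, split by probe. A_55_P1998962, the brighter, read 15.31 and 15.25 in the Pak1-/- samples and 15.13 and 15.17 in the Pak1+/+ samples (difference 0.13, or 1.09-fold, and 0.08 to 0.26 over the settings tried). A_55_P1959064 read 12.46 and 12.42 against 9.32 and 9.44 (difference 3.06, or 8.33-fold). The groups did not overlap at either probe, but the differences were far from equal in size, and the value that stands for the gene by the brightest-probe rule is the small one. Which transcripts each probe reads was not tested.

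Oas1c, a member not known to make 2-5A, was nearly level. Its probe (chr5:121250208-121250267, − strand) read 10.63 and 10.70 against 10.17 and 10.32, a difference of 0.42 or 1.33-fold. The Pak1-/- samples were both above the Pak1+/+ samples by more than the gaps within the groups, 0.07 and 0.15.

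Oas1g could not be read with confidence from either probe. A_55_P1998979 read 7.91 and 7.86 in the Pak1-/- samples and 6.23 and 9.51 in the Pak1+/+ samples. The Pak1+/+ samples lay on both sides of the Pak1-/- samples, the first of them not well above background, so the mean difference of 0.02 stands for no single state. It was −1.62 without the first Pak1+/+ sample and 1.66 without the second.

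The gap of 3.28 between the Pak1+/+ samples at that probe was exceeded by 0.00367% of the 27215 probes compared between replicates. On the second Pak1+/+ array the intensity was 688, against 67.8 on the first, and the pixels of its spot varied by 36.0%, more than all but 0.679% of the spots well above background there, whose median was 14.6%. Whether the spot or the sample accounts for the value was not tested. A_55_P1998977 read 8.19 and 6.68 against 6.17 and 6.46 and was well above background in the first Pak1-/- sample alone, where the Pak1-/- mean was at least 1.48-fold higher. That bound rests on the first Pak1-/- sample and takes the dim value of the second as measured, so it is not firm. The difference of 1.12 was 1.88 without the second Pak1-/- sample. Without the first it was 0.37, with no remaining array well above background.

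Over the genes, 6 of 8 members passed limma's adjusted threshold of 0.05 as higher and 0 as lower. That contrast chose the members, so the count is given only beside its background: over all 22002 genes, 22.8% passed as higher and 28.2% as lower. Of the genes that passed, 44.7% were higher, and 52.2% with cyclic loess (5811 higher and 5316 lower, against 5025 and 6208). For 7 of 8 members both Pak1-/- samples lay above both Pak1+/+ samples, as did 34.2% of all genes, and Oas1g was the exception. At least 8-fold higher were 4 of 8 members and 0.968% of all genes (213 genes). With the processed signal or without an offset Oas3 passed this mark as well, which made 5 of 8 members beside 1.93% and 1.39% of all genes. With Oas1b read by its dimmer probe it was likewise 5 of 8 members, beside the same 0.968% of all genes. The median difference was 4.40 over the members and −0.05 over all genes.

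**Figure D2:**
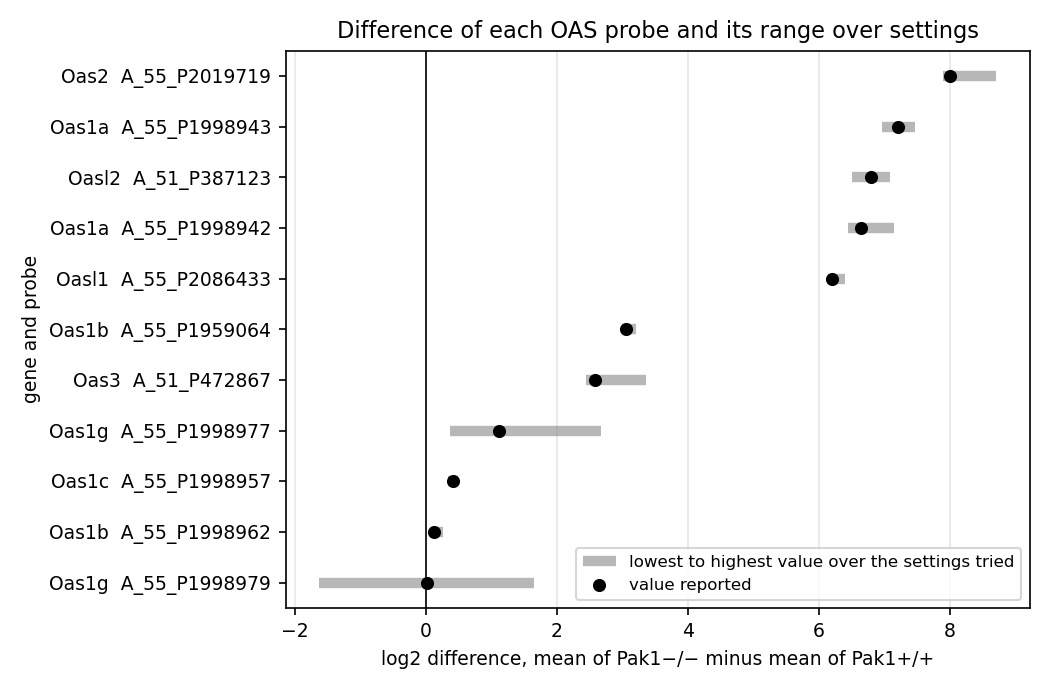
Difference of each OAS probe (horizontal axis, log2, mean of the 2 Pak1-/- samples minus mean of the 2 Pak1+/+ samples) with grey bars from the lowest to the highest value over the processing settings tried. Differences run from 0.02 for the Oas1g probe A_55_P1998979, whose bar crosses 0, to 8.01 for Oas2.

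Over the settings tried, left-out samples included, the Oas2 difference ran from 7.90 to 8.71, that of Oas3 from 2.44 to 3.36 and that of the brightest Oas1a probe from 6.97 to 7.46. The Oas1g probe A_55_P1998979 was the only member probe that changed sign. Very high intensities, such as 111778 and 116668 for Oas1a, had been scaled up by the scanner software from a second scan at lower gain. This held for the bright spots of Oas1a, Oas2, Oasl1 and Oasl2 on the Pak1-/- arrays and for the Oas1b probe A_55_P1998962 on all 4.

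The replicates of a group did not vary in the same way. At all 11 member probes the second Pak1+/+ sample read above the first, by up to 0.59 at Oasl2 and 3.28 at Oas1g, whereas the second Pak1-/- sample read above the first at 3 of 11. Averaged over the 8 members and centred on the mean of the arrays, the family stood at 2.00 and 1.92 in the Pak1-/- samples and −2.26 and −1.66 in the Pak1+/+ samples. Without Oas1g the same mean over 7 members was 2.28 and 2.20 against −2.35 and −2.13, so much of the gap between the Pak1+/+ samples came from that gene. In bulk RNA, a smaller number of expressing cells and less RNA per cell cannot be told apart.

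The remaining Oas1 copies, Oas1d, Oas1e, Oas1f and Oas1h, were read as a list of their own. Oas1f read 15.00 and 14.88 in the Pak1-/- samples and 9.16 and 9.32 in the Pak1+/+ samples, a difference of 5.70 ± 0.09 (SE; 52.1-fold, limma adjusted p = 4.06e-05). Its probe shares the stretch printed above with Oas1a. Oas1e (0.29, adjusted p = 0.0518) and Oas1d (−0.25, adjusted p = 0.0885) did not pass limma's test, and neither probe of Oas1h passed the background limit on any of the 4 arrays. The promoters of Oas1f and Oas1h held no ISRE core in the window searched.

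Genes that work with the OAS family were read next, together with these 4 Oas1 copies, 45 genes of which 44 had a probe (all but Ifnl2) and 43 were bright enough to test (all of these but Oas1h). Of these, 23 rose, 6 fell and 14 did not pass (limma, adjusted p under 0.05), with a median difference of 0.65 beside −0.05 over all genes. Without the Oas1 copies, 22 of 40 rose and 6 fell. The share that rose can be read against the 22.8% of all genes and the share that fell against 28.2%. All 43 are shown in the plot of partner genes.

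**Figure D3:**
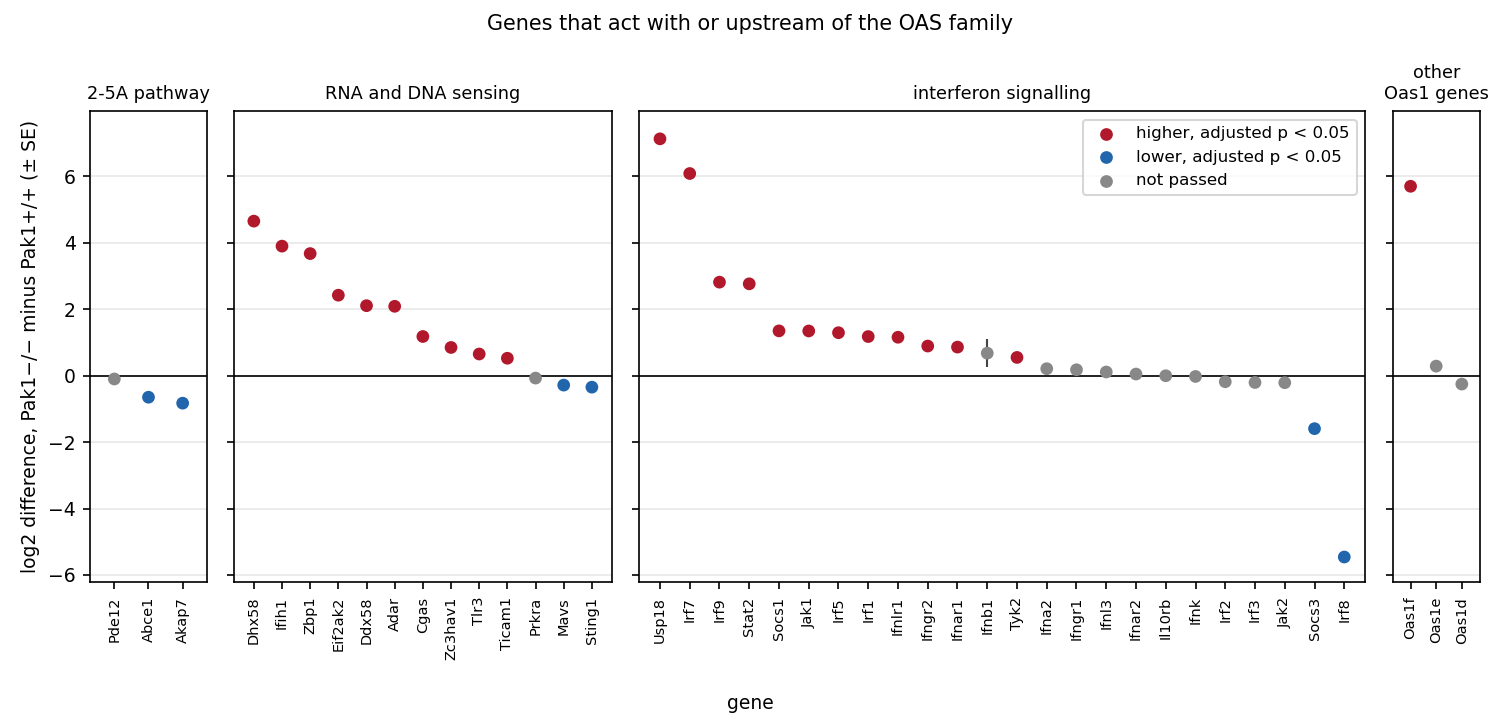
Log2 difference (vertical axis, Pak1-/- minus Pak1+/+, with SE) of the 43 tested genes (horizontal axis), partners and other Oas1 copies, in 4 lists; red rose, blue fell and grey did not pass limma's test. Usp18 (7.13) and Irf7 (6.09) are highest, and the lowest point is Irf8, whose size is a bound only (at least 40.8-fold lower), since it was not well above background in either Pak1-/- sample.

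Of 3 genes listed for the 2-5A pathway beyond the synthetases, 0 rose and 2 fell. Abce1, best known as a ribosome recycling factor, read 14.22 and 14.34 in the Pak1-/- samples against 14.99 and 14.87 and fell by 0.65 (limma adjusted p = 0.0040), as did Akap7, a 2-5A phosphodiesterase, by 0.83 (limma adjusted p = 0.00159), although 1 of 3 Akap7 probes did not pass. Pde12, which also degrades 2-5A, differed by −0.10 (limma adjusted p = 0.273).

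Other sensors of foreign nucleic acid mostly moved with the OAS genes. Of 13 genes on this list 10 rose and 2 fell, with a median difference of 1.18. Dhx58 (4.65) and Ifih1 (3.90, and at least 4.66-fold by a probe not well above background in the Pak1+/+ samples), RNA helicases of the RIG-I family, rose, along with Ddx58 (2.11), which encodes RIG-I itself. Zbp1 (3.68, and 4.46 by its dimmer probe), a sensor of Z-form nucleic acid, the RNA-activated kinase gene Eif2ak2 (2.42), the RNA editor Adar (2.09) and the DNA sensor Cgas (1.18) rose as well, all at a limma adjusted p of 0.000453 or less. Of 3 adaptors behind such sensors on the list, Ticam1 rose by 0.53 (limma adjusted p = 0.0103), as did its sensor Tlr3 by 0.65 (limma adjusted p = 0.0127, and 0.0532 without Pak1-/- replicate 2). Mavs and Sting1 fell by 0.28 and 0.35 (limma adjusted p = 0.0255 and 0.0236). Both calls were lost with cyclic loess (−0.21 and −0.24) and without Pak1-/- replicate 1, Pak1-/- replicate 2 or Pak1+/+ replicate 2, and that of Mavs also without Pak1+/+ replicate 1 and with a replicate block (limma adjusted p up to 0.140 for Mavs and 0.120 for Sting1).

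Of 24 tested genes of interferon signalling, 12 rose and 2 fell, with a median difference of 0.61. Stat2 and Irf9, factors that carry the interferon signal to the ISRE, were among those that rose. Stat2 read 13.73 and 13.42 in the Pak1-/- samples against 10.72 and 10.90 (difference 2.77, limma adjusted p = 0.000293), and Irf9 read 14.65 and 14.62 against 11.66 and 11.97 (difference 2.82, limma adjusted p = 0.000234). The largest rises on the list were those of Usp18, a brake on the interferon receptor, at 7.13 (limma adjusted p = 7.87e-05), and of Irf7, a factor that drives interferon genes, at 6.09 (limma adjusted p = 4.06e-05). Irf7 read 14.30 and 14.26 against 8.10 and 8.28.

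Smaller rises were measured for Socs1 (1.35), Jak1 (1.35), Irf5 (1.29), Irf1 (1.18) and the interferon lambda receptor gene Ifnlr1 (1.16), with limma adjusted p between 0.000592 and 0.00166. The second Irf1 probe did not pass, and Irf5 was well above background in 1 of 2 Pak1+/+ samples, with a difference of 1.197 to 2.37 over the settings tried. Irf8, a factor best known from blood cells, moved the other way: it read 12.10 and 11.84 in the Pak1+/+ samples and was not well above background in either Pak1-/- sample, at least 40.8-fold lower (limma adjusted p = 5.83e-05). Socs3, a feedback inhibitor of cytokine receptors, fell by 1.60 (limma adjusted p = 0.000362).

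The ligand and its receptor were read as well. Ifnb1, which encodes interferon beta, read 7.96 and 7.997 in the Pak1-/- samples and 7.93 and 6.67 in the Pak1+/+ samples, of which the last was not well above background (difference 0.68, limma adjusted p = 0.241). Without the first Pak1+/+ sample the difference was 1.31 and passed (limma adjusted p = 0.00263), and without the second it was 0.04 (limma adjusted p = 0.787). With the processed signal it was 1.59 (limma adjusted p = 0.290), so its size is not known from these arrays. Of the receptor chains Ifnar1 rose by 0.86 (limma adjusted p = 0.0015) and Ifnar2 differed by 0.05 (limma adjusted p = 0.638), a value whose sign turned with the scanner's processed signal and without Pak1+/+ replicate 1.

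The ISRE core was counted in the promoters of the partners, the other Oas1 copies left out, as a description. It was present for 4 of 6 members, for 5 of 19 partners that rose (Ifih1, Ddx58, Eif2ak2, Stat2 and Socs1), for 0 of 5 that fell and for 2 of 11 that did not pass, beside 3.99% of all genes.

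Genes next to the OAS genes on chromosome 5, chosen by position alone, were mixed. Of 40 such genes, 10 on each side of each cluster, 35 were tested, 9 rose and 11 fell, with a median difference of 0.01, beside 22.8% and 28.2% of all genes. With cyclic loess 12 rose and 8 fell, and with the processed signal 6 rose and 12 fell. With 1 sample left out these counts fell to 5 rising without Pak1-/- replicate 2, 4 without Pak1+/+ replicate 1 and 3 without Pak1+/+ replicate 2, and to 7 falling without Pak1-/- replicate 1 and 5 without either Pak1+/+ replicate. On the Oas2 side Dtx1, a Notch regulator, differed by 0.50 (limma adjusted p = 0.0235), a call lost without either Pak1+/+ sample (0.0634 and 0.0852). Its counterpart at the other end, Rph3a, was too dim to test, as was 4930519G04Rik beside Oasl2, and 2210016L21Rik beside Oasl1 differed by −0.32 (limma adjusted p = 0.0482), a call lost under 9 of 15 settings. Trafd1, a zinc finger regulator of innate immune signalling, rose by 1.09 (limma adjusted p = 0.000757) and Gltp, a glycolipid transfer protein gene, fell by 1.46 (limma adjusted p = 0.00284).

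**Figure D4:**
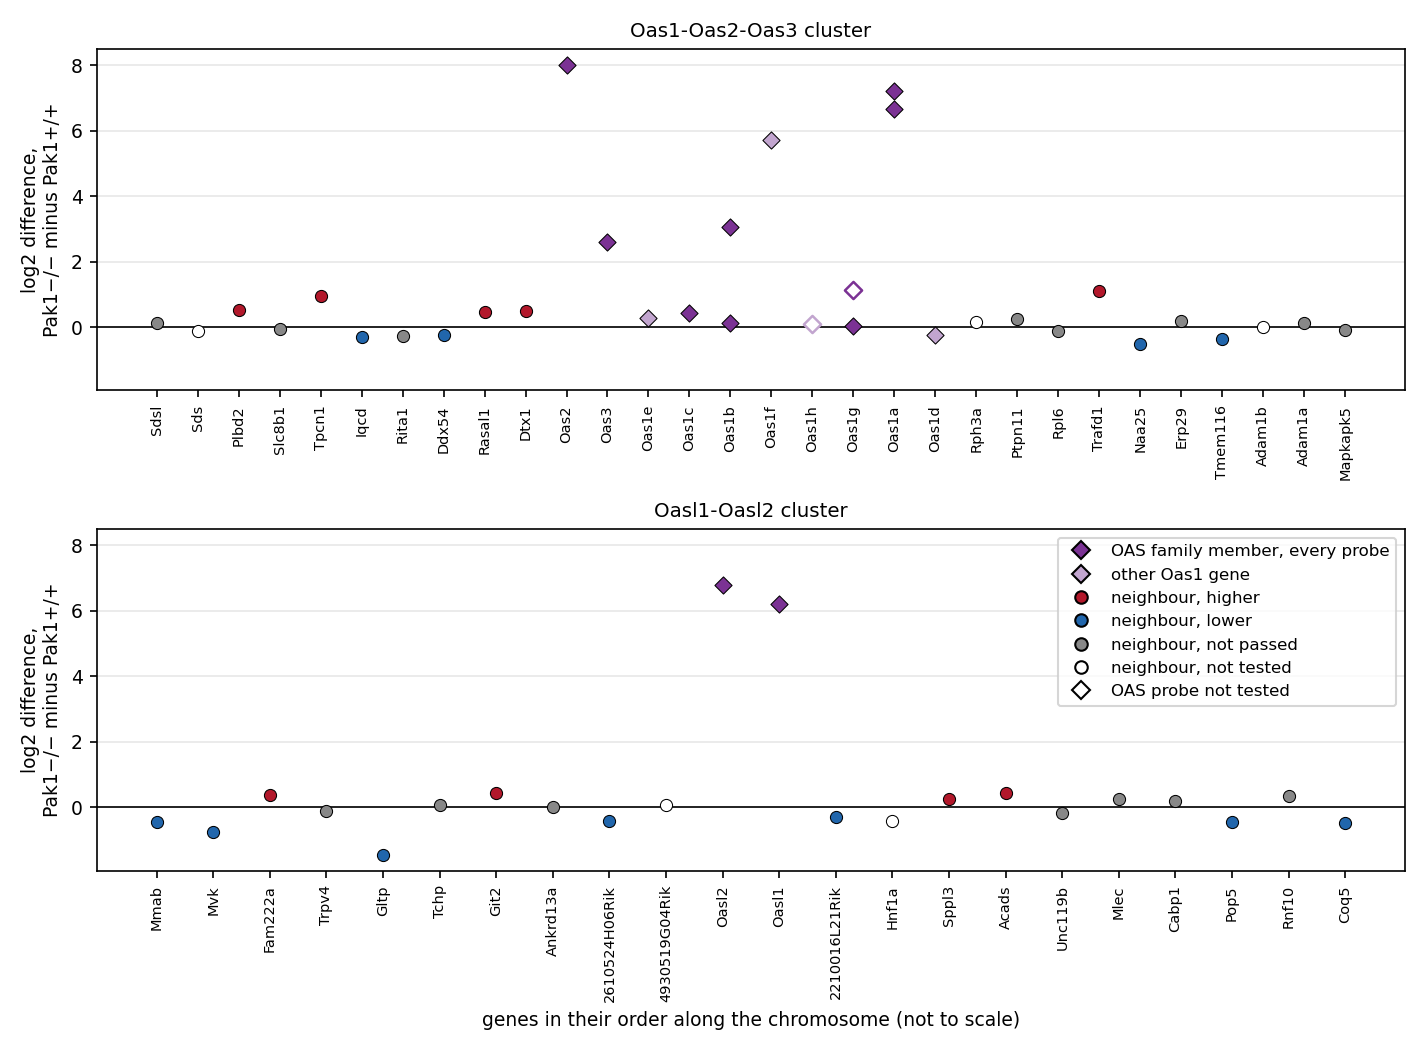
Log2 difference (vertical axis, Pak1-/- minus Pak1+/+) of the OAS genes (diamonds, every member probe) and of the 10 genes on each side (circles), in chromosome order and not to scale, for the Oas1-Oas2-Oas3 cluster and the Oasl1-Oasl2 cluster. Neighbours lie between −1.46 (Gltp) and 1.09 (Trafd1), while Oas2, Oas1a, Oas1f, Oasl1 and Oasl2 lie above 5.

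Within the Oas1-Oas2-Oas3 cluster the differences did not follow position. Oas2 (8.01) and Oas3 (2.58) stand at one end, Oas1e (0.29) and Oas1c (0.42) come next, Oas1b (0.13 and 3.06 by its probes) and Oas1f (5.70) follow, and Oas1h, Oas1g, Oas1a (7.22) and Oas1d (−0.25) close the row. Genes with large and with small differences were interleaved.

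The genes whose pattern over the 4 arrays lay nearest to the family mean, by the Euclidean distance of centred log2 values, were Irgm2 (distance 0.216), Saa3 (0.226), Ifih1 (0.260), Igtp (0.277), Zbp1 (0.298), Kif26b (0.306), Cbr2 (0.347), AW112010 (0.360), Xaf1 (0.364) and LOC547349 (0.390). The measure takes size into account, so the 8 of these genes measured in both groups have a difference near that of the family mean, between 3.68 (Zbp1) and 4.23 (Xaf1). Averaged over the probes of each gene, the 8 ran from 2.37 (LOC547349) to 4.07 (Zbp1), with Ifih1 at 3.13 and Xaf1 at 3.19. Kif26b and AW112010 were not well above background in the Pak1+/+ samples and were at least 11.4-fold and 11.3-fold higher in the Pak1-/- samples, so their distances depend on the background correction, and their differences reached 6.50 and 6.85 over the settings tried. The family mean includes the uneven Oas1g probe. With 4 arrays in 2 groups, nearness chiefly states a like difference between the groups.

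Markers of other cell types were counted beside the OAS genes. The marker counts can be read against the 22.8% of all genes that rose and the 28.2% that fell. Of 15 leukocyte markers 10 were tested, 0 rose and 4 fell (Ptprc, Adgre1, Cd14 and Coro1a), Lyz2, Itgax and Laptm5 stayed at background on all 4 arrays, and the summed intensities of the list were 371365 and 306844 in the Pak1-/- samples against 407004 and 385285. Without Cd14 the sums were 325168 and 252903 against 239621 and 229219, the opposite order, and Siglech held most of what remained. Of 7 fibroblast markers 3 were tested and Col1a1 rose (1.12, limma adjusted p = 0.00507), and Col3a1, Pdgfrb, Dcn and Lum likewise stayed at background. Of 4 endothelial markers 3 were tested, and 0 rose and 0 fell. Of 8 epithelial markers 5 rose and Krt7 fell, with Krt14, a basal keratin gene, 2.83 higher (limma adjusted p = 7.51e-05), and the part of this in the OAS values was not tested.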

How the data were processed

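RNA of 4 mouse samples, 2 Pak1-/- and 2 Pak1+/+, had been hybridized with 1 dye (Cy3) to Agilent whole genome arrays by the authors, and images were read with Feature Extraction 9.5, as the submitters' processing notes state. The deposited scanner files give spot intensity, local background and flags for each spot. The study's human cells were not analysed here. The members and all gene lists were chosen with earlier results of these data known.

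Mean intensities were background-corrected with normexp (offset 50) and quantile-normalized in limma 3.58.1 (R 4.3.3). The study's methods name normexp and quantile normalization, and the offset was chosen here. Control spots and outlier-flagged spots were left out, and spots of a probe were averaged. A probe was tested when at least 2 of 4 arrays had it well above background (27229 of 39429), with genotype as the only term, limma's moderated two-sided test and Benjamini-Hochberg adjustment over all of them (threshold 0.05, 2 residual and 2.63 prior degrees of freedom). An exact permutation test of 2 against 2 samples cannot go below p = 0.333, so none was used. The fit was tested on simulated data. A probe dim in a whole group has only a bound: the brighter group's mean was set against the dim group's mean of, per array, the higher of its own signal and the lowest signal among probes well above background.

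The log2 values deposited by the authors (24008 of 39485 rows filled) followed these values with r of 0.9998 or more, and served as an alternative. Same-numbered replicates did not deviate together (r = −0.028).

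Named genes were all members, partner genes that passed with a log2 difference of at least 1 in size, partners fixed by name (Abce1, Pde12, Ifnb1, Ifnar1, Ifnar2, Stat2, Irf9 and Irf7), neighbours beside each cluster or past the same limits, the 10 nearest genes, Pak1 and Erbb2. Akap7, Mavs, Sting1, Ticam1, Tlr3, the other Oas1 copies and single markers were named after their values were seen. Some genes of the lists are not reported here and were left out of the list counts. Gene names are those of the array, matched to RefSeq through 26055 of 32334 probe accessions. Alternatives changed the background correction, scaling, offset, dim-probe filter, probe choice, outlier spots, replicate block and the samples left in.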

Additional observations from a re-analysis of the deposited data

How the results depend on the processing

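The family difference, the median over the members of 4.40, was 4.88 with the processed signal scaled to the 75th percentile and 4.70 with normexp without an offset, and 4.33 to 4.46 when each sample was left out in turn. A replicate block cannot move a mean difference in this balanced design (4.40), and with it 13202 in place of 14144 probes passed. Of the partners 22 to 25 rose and 4 to 6 fell over the alternatives. Of the neighbours, 3 to 8 rose and 5 to 11 fell when each sample was left out in turn, beside 9 and 11, with 3 rising without Pak1+/+ replicate 2 and 5 falling without either Pak1+/+ replicate. Fewer samples entered those fits, and the cause was not tested.

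The Oas1g probe A_55_P1998979 ranged from −1.62 to 1.66 when each sample was left out (−0.0073 without Pak1-/- replicate 1). Ifnar2 was −0.022 with the processed signal scaled to the 75th percentile, and ranged from −0.011 to 0.11 when each sample was left out. Erbb2 no longer passed without Pak1-/- replicate 1, Pak1+/+ replicate 1 or Pak1+/+ replicate 2 (limma adjusted p up to 0.112), and Pak1 passed with cyclic loess (0.27 higher, limma adjusted p = 0.0265). Of the settings chosen after seeing the data, the Oas1a and Oas1g probes whose accessions name no other OAS gene (6.65 and 1.12) could not move the family median, which lies between Oasl1 and Oas3, and the dimmer Oas1b probe gave 4.63. The other settings added in this way left Oas1g out of the family profile and Cd14 out of the leukocyte sum. The slide and array position could not be tried as a block.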
